A study of Mus musculus with 75 samples.

Results

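The 10 genes described here are the whole mouse set of E2F transcription factors, E2f1 to E2f8, and their dimerization partners, Tfdp1 and Tfdp2, which encode DP proteins. They were taken by name from the 24984 genes counted in every RNA-seq library, with earlier results of these data known. All 10 passed the filter on low counts in each experiment. The study followed replicative senescence (RS) of skin fibroblasts, taken from female C57BL/6 mice at the age of 2 months, at passages P1, P3, P5 and P7, with 4 RNA-seq libraries per passage and 13 ATAC-seq samples (4 at P1 and 3 each at P3, P5 and P7). In further RNA-seq experiments, E2f4 was overexpressed in P4 fibroblasts from a doxycycline-induced lentivirus that also encodes EGFP (labelled E2f4 OE, 2 libraries, against 2 of cells that expressed EGFP alone), or knocked down in P3 fibroblasts with the hairpin sh1 (3 libraries, against 3 of a non-targeting hairpin, nt). Tead1 was knocked down with sh3 or sh4 and Atf3 with sh5 or sh6, in 3 libraries each, both beside 3 nt libraries of their own. These perturbed fibroblasts came from newborn and 2-month-old mice, without a statement of which age served which library, and the labels do not say whether replicates are separate animals or cultures, so p-values measure only the spread between samples, which may be technical.

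E2F proteins bind the promoters of cell cycle genes, and most do so as a dimer with a DP protein. E2F1, E2F2 and E2F3 are known as activators that drive entry into S phase once cyclin-dependent kinases release them from the retinoblastoma protein. E2F4 and E2F5 are known mainly as partners of the pocket proteins p107 and p130 in quiescent cells, where with DP and the MuvB core they form the DREAM complex, a repressor of cell cycle genes. E2F6 acts without pocket proteins and belongs to the Polycomb complex PRC1.6, and E2F7 and E2F8 are atypical members that bind DNA without DP, repress S phase genes and are themselves E2F targets.

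The promoter sequences of the genes with the largest RNA differences between P1 and P7 are shown first. E2f3 is added, whose promoter ATAC signal but not RNA passed the test between these passages. The strongest ATAC peak of each gene, described further on, overlapped the bases shown in all 13 samples at E2f7, Tfdp1, E2f3 and E2f6 and in 11 of 13 at E2f2, where the other 2 lay at another start site. At E2f8 it was nearest to a start site whose promoter is not shown, and overlapped these bases in 10 of 13 samples, P5 replicate 3 and P7 replicates 2 and 3 being the exceptions. Each is the 250 bases before an annotated start site, 5′ to 3′ on the strand of the gene, from RefSeq on GRCm38.p6. Capitals mark an E2F site (TTTCCCGC, TTTCGCGC, TTTGCCGC or TTTGGCGC), a CHR element (TTTGAA or TTCGAA) or a CCAAT box, searched on both strands, and no marked stretch overlaps another in the sequences printed.
E2f7, chr10:110745189-110745438, plus strand: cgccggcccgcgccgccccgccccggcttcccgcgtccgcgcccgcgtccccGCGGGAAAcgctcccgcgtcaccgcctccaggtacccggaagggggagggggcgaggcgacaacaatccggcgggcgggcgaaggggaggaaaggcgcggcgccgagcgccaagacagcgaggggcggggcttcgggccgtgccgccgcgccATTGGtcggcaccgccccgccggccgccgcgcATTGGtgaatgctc
E2f8, chr7:48881597-48881846, minus strand: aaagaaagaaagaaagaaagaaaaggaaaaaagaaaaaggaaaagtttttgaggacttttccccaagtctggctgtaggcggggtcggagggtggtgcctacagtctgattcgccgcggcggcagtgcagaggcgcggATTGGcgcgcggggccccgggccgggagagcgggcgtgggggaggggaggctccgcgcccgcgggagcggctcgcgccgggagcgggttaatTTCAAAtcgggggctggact
Tfdp1, chr8:13338501-13338750, plus strand: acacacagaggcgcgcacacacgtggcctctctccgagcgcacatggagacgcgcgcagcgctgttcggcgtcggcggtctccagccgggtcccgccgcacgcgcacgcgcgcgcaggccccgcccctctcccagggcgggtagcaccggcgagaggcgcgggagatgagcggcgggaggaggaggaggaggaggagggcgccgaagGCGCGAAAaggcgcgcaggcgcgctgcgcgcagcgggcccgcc
E2f3, chr13:29986064-29986313, minus strand: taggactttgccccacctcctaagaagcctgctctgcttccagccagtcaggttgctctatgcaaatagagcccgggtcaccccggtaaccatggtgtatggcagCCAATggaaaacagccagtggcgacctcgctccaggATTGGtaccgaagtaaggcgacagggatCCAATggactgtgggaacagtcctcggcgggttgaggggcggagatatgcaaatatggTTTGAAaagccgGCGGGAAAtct
E2f2, chr4:136172024-136172273, plus strand: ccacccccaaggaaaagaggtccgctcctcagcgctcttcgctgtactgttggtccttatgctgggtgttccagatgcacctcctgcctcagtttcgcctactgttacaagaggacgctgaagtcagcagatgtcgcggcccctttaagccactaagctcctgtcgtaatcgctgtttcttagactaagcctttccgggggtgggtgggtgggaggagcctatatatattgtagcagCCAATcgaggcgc
E2f6, chr12:16810715-16810964, plus strand: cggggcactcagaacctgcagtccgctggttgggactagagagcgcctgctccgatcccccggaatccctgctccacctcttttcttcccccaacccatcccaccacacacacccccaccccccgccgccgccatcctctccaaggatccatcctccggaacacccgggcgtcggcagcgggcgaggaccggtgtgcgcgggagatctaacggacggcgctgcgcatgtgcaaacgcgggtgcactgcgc

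Counted with the start-site base as 0, the E2f7 promoter held 1 E2F site from -198 to -191 and CCAAT boxes from -46 and from -14. The E2f8 promoter held a CCAAT box from -112 and a CHR element from -20. Tfdp1 had 1 E2F site from -43 to -36. The E2f3 promoter shown was the only one of those searched with all 3 kinds, the E2F site from -11 to -4, the CHR element from -23 and 3 CCAAT boxes. The E2f2 promoter shown held a CCAAT box from -13, and its E2F site lay from 39 to 46, past the start site and outside the printed bases. The 300 bases from 250 before to 50 after the start were searched in 12 promoters of the 8 members found in the promoter table. The searched promoters of E2f1, E2f6 and Tfdp2 and the second E2f3 promoter had no match. The strongest ATAC peak overlapped the 250 bases before the start in 7 of 13 samples at E2f1. At Tfdp2 and the second E2f3 promoter it did so in 0 of 13. The promoters of the E2f1 and Tfdp2 start sites nearest to that peak were not searched. Among all 32851 promoters of this length, 2.26% held an E2F site, 19.2% a CHR element, 37.4% a CCAAT box and 0.146% all 3. E2f4 and E2f5 have no entry there. A match of letters is a description and not evidence of binding.

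Total gene counts lay between 9147324 and 27552949 per library, and between 13430229 and 15725823 in the passage series. The count of a single member ranged from 5 (E2f2) to 30752 (E2f4 in OE). The 10 fibroblast markers summed to 26480 to 28060 CPM (counts scaled to the same library size with TMM) at P1 and to 49270 to 59870 at P7. Markers of other cell types, except melanocytes and Schwann cells, were higher at P1. The 6 macrophage markers summed to 271.8 to 420.3 CPM at P1 and 33.51 to 48.62 at P7, the 5 keratinocyte markers to 42.2 to 292 and 2.078 to 3.359, and the 4 endothelial markers to 126.1 to 132.2 and 6.977 to 9.491. The 3 adipocyte markers summed to 44.58 to 58.38 CPM at P1 and 1.188 to 5.841 at P7, the 5 muscle markers to 117 to 179.5 and 38.6 to 109.3, and the 7 melanocyte and Schwann cell markers to 34.18 to 42.94 and 40.58 to 121.4. Krt14 and Krt1, which define keratinocytes, Adipoq and Plin1 of adipocytes, Myog and Myod1 of muscle and Dct and Tyr of melanocytes had no count at P7. Each comparison with P1 below carries this difference in markers, and its part in the results was not tested, except that the later steps are also given without P1. In these bulk samples, fewer cells of a type and less RNA per cell cannot be told apart. Since strand was ignored in counting, genes that overlap a gene on the other strand are uncertain. This concerns E2f7 (Gm51780), E2f8 (LOC115486422 and Gm2788) and E2f5 (Rbis). E2f1 (Necab3) and Tfdp2 (Gm39408) overlap a gene on their own strand and are uncertain as well. The overlaps at E2f1 (bases 154559400 to 154559406) and E2f5 (14606289 to 14606309) are short.

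The RNA level of the family changed unevenly with passaging. The atypical members E2f7 and E2f8 fell most, E2f2 and Tfdp1 fell as well, E2f6 rose, and E2f3, E2f5 and Tfdp2 did not pass the test between P1 and P7. In all, 7 of 10 members passed at P7 against P1 (adjusted p under 0.05 over all 13442 genes tested), where 62.5% of all genes passed. Of these, 6 were lower (31.9% of all genes) and 1 was higher (30.5% of all genes). The count of members is thus near the share of all genes, and the members differed from one another in the size of the change. With a fold over 2 as well, only E2f2, E2f7 and E2f8 of the 10 passed, beside 21.4% of all genes, so this count was not far from the share either.

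E2f7 stood at 29.6, 30.2, 28.8 and 25.3 CPM in the 4 P1 libraries, at 21.4, 17.9, 23.2 and 18.9 at P3, at 11.8, 6.71, 9.24 and 5.76 at P5, and at 2.06, 4.01, 3.61 and 2.45 at P7. The ranges of the 4 passages did not overlap, and every step was downward. From P1 to P7 its log2 fold change was -3.23 (standard error 0.21, edgeR adjusted p = 1.47e-10), and it lay between -3.39 and -3.08 when any 1 library was left out. E2f8 ran in parallel, with 29.2, 30.4, 29.7 and 28.5 CPM at P1, 20.5, 15.9, 21.8 and 20.7 at P3, 11.05, 6.98, 7.75 and 6.29 at P5, and 1.76, 4.40, 3.30 and 1.48 at P7. Again no library of one passage reached the range of the next. Its log2 fold change was -3.43 (standard error 0.24, adjusted p = 2.64e-10). Over the 16 libraries the log2 levels of E2f7 and E2f8 had a Pearson correlation of 0.99, a description in which all points share the passage order.

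Among the activators, E2f2 had the lowest counts and the largest loss. Its level was 6.03, 4.08, 5.06 and 5.88 CPM at P1, 2.96, 2.61, 2.97 and 1.17 at P3, 2.33, 0.691, 1.87 and 1.59 at P5, and 1.53, 1.00, 0.922 and 0.371 at P7. All P1 libraries lay above all others, while P3, P5 and P7 overlapped. The log2 fold change was -2.45 from P1 to P7 (standard error 0.36, adjusted p = 8.12e-06). E2f1 stood at 64.1, 61.3, 65.1 and 59.6 CPM at P1, 53.4, 34.8, 40.9 and 35.5 at P3, 38.4, 35.7, 43.9 and 41.6 at P5, and 50.1, 50.5, 44.5 and 43.5 at P7. It was thus lower in every later library than in any P1 library, with no further fall after P3, and P7 lay 0.41 below P1 on the log2 scale (standard error 0.11, adjusted p = 0.00419). E2f3 moved up and down, with means of 35.5 ± 3.09, 44.4 ± 2.57, 37.0 ± 3.11 and 41.0 ± 4.21 CPM at P1, P3, P5 and P7 (SD, n = 4). Its difference of 0.21 between P7 and P1 missed the threshold (adjusted p = 0.0618), and passed it when P3 replicate 4, P5 replicate 2, P7 replicate 1 or P7 replicate 3 was left out (lowest adjusted p = 0.0259).

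E2f4, the member that the study perturbed, changed little. Its level was 48.8, 41.6, 45.2 and 47.6 CPM at P1, 42.2, 39.9, 45.9 and 44.8 at P3, 42.1, 37.7, 41.2 and 42.3 at P5, and 39.8, 41.9, 37.0 and 33.6 at P7. Neighbouring passages overlapped throughout, and 1 P7 library lay above the lowest P1 library. The fall of 0.27 on the log2 scale from P1 to P7 passed the test (standard error 0.09, adjusted p = 0.0122), but not without P7 replicate 4 (-0.21, adjusted p = 0.0545). E2f5 averaged 9.60 ± 1.34, 10.97 ± 0.925, 8.28 ± 1.26 and 8.32 ± 0.666 CPM at the 4 passages, and its log2 difference of -0.21 between P7 and P1 did not pass (adjusted p = 0.207).

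E2f6 was the single member that passed the test as higher at P7 than at P1. The libraries gave 41.4, 41.5, 39.1 and 41.3 CPM at P1, 46.9, 56.7, 46.5 and 50.03 at P3, 44.4, 43.6, 41.9 and 40.0 at P5, and 51.5, 54.6, 59.9 and 51.7 at P7. P5 overlapped P1, P7 lay above both, and P3 overlapped P7. From P1 to P7 it rose by 0.42 on the log2 scale (standard error 0.08, adjusted p = 0.000218), between 0.38 and 0.44 without any 1 library.

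Of the dimerization partners, Tfdp1 fell and Tfdp2 differed less. Tfdp1 stood at 216, 223, 218 and 222 CPM at P1, 197, 185, 211 and 187 at P3, 178, 138, 159 and 121 at P5, and 122, 118, 120 and 107 at P7. P1 lay above P3 and P3 above P5 without overlap, while the lowest P5 library fell inside the range of P7. The log2 fold change from P1 to P7 was -0.91 (standard error 0.10, adjusted p = 1.14e-07). Tfdp2 averaged 30.8 ± 2.42, 33.0 ± 1.73, 26.4 ± 3.55 and 26.9 ± 3.88 CPM at P1, P3, P5 and P7, and its difference of -0.20 did not pass (adjusted p = 0.132).

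**Figure D1:**
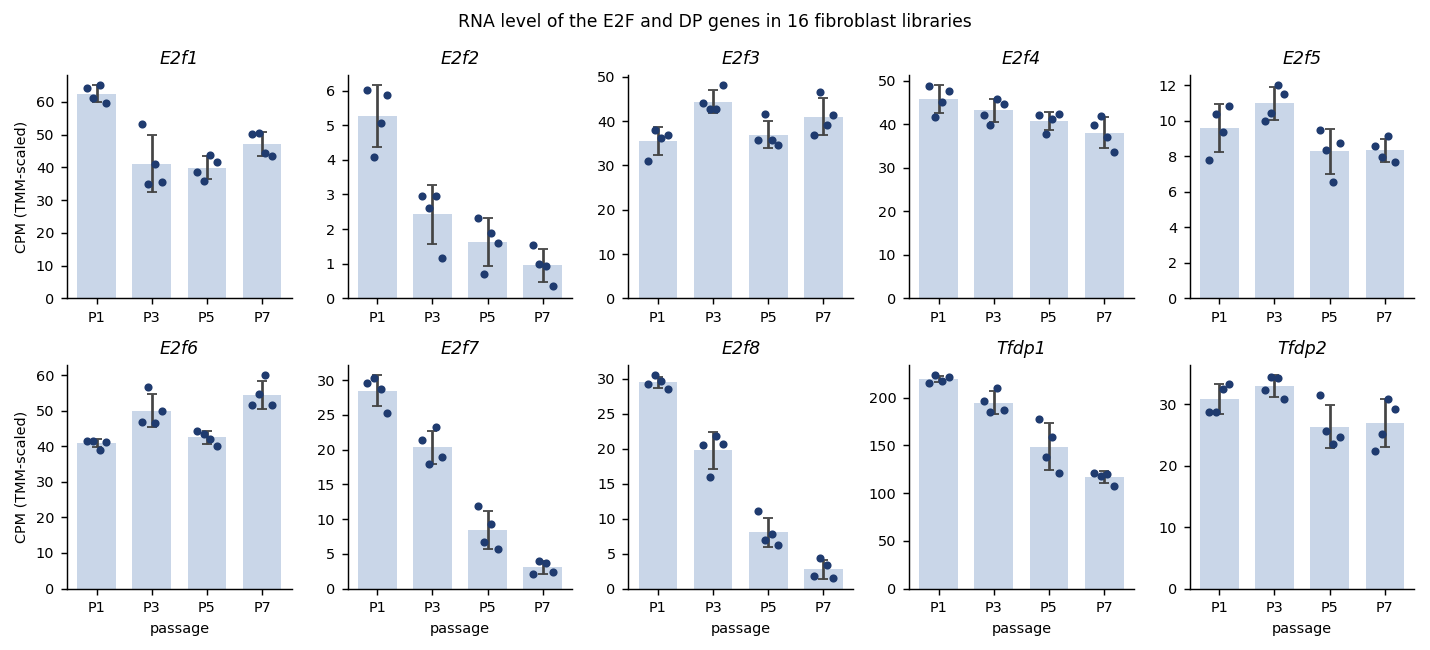
RNA level of each E2F and DP gene by passage, in CPM after TMM scaling. Points are the 4 libraries of a passage, bars their mean and whiskers the SD. Each panel has its own axis from 0. E2f7 and E2f8 drop at every step to 3.03 and 2.74 CPM at P7, Tfdp1 drops from 219.6 to 116.7 CPM, and E2f6 is highest at P7.

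The members did not all move at the same step. From P1 to P3, 6 of 10 passed, where 33.4% of all genes passed. The 4 lower ones (17.5% of all genes) were E2f1 (-0.60), E2f2 (-1.11), E2f7 (-0.48) and E2f8 (-0.58), and E2f3 (0.32) and E2f6 (0.29) were higher, all as log2 fold changes. Without P1 replicate 1 the count was 3, and E2f7, E2f8 and E2f3 (adjusted p = 0.0614) no longer passed. E2f7 lost its call without any of P1 replicates 1, 2 and 3 or P3 replicates 1, 2 and 4 (adjusted p up to 0.117), and E2f8 without any of P1 replicates 1, 2 and 3 or P3 replicate 2 (up to 0.0935). From P3 to P5, 7 of 10 passed (28.7% of all genes) and all 7 were lower (15.3% of all genes). E2f7 fell by 1.28 and E2f8 fell by 1.30 on the log2 scale, and Tfdp1 fell by 0.39. E2f3 (-0.26), E2f5 (-0.41), E2f6 (-0.24) and Tfdp2 (-0.32) passed narrowly, with adjusted p between 0.0344 and 0.0405, and lost the call in 10, 4, 7 and 6 of the 16 fits that left out a library. The count was 3 without P5 replicate 3 or 4 and 4 without P3 replicate 2, 3 or 4. In a fit of the P3, P5 and P7 libraries alone, chosen after seeing the data, 4 members passed. From P5 to P7, 4 of 10 passed (16.8% of all genes). E2f7 (-1.47), E2f8 (-1.55) and Tfdp1 (-0.35) were lower (9.10% of all genes), and E2f6 (0.36) was higher. The Tfdp1 call at this step ended without P5 replicate 1 (-0.25, adjusted p = 0.0776), and the count without P1 stayed at 4.

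Between P3 and P7, a contrast without P1, 6 of 10 members passed and all were lower. Of all 13442 genes, 51.3% passed in either direction and 3558 passed as lower. The 6 members were E2f7 (-2.74), E2f8 (-2.85), E2f2 (-1.35), Tfdp1 (-0.74), E2f5 (-0.40) and Tfdp2 (-0.29). The E2f5 call ended without P3 replicate 3 or 4 or P7 replicate 2 or 4 (adjusted p up to 0.0689), and the Tfdp2 call without P3 replicate 2 or 3 or P7 replicate 1 or 2 (up to 0.113). E2f1 gave a log2 difference of 0.20 that passed only without P3 replicate 1 (0.35, adjusted p = 0.00685). E2f4 gave -0.18 (adjusted p = 0.0897, and 0.0487 without P7 replicate 2) and E2f6 gave 0.12 (adjusted p = 0.218).

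To compare levels between genes, reads were divided by the length of the exons (RPKM, the same scaled counts per kb of exon). Tfdp1 was the most abundant member at every passage, at 80.5 ± 1.29 RPKM at P1 and 42.8 ± 2.41 at P7 (SD, n = 4), and it made up 95.2% ± 0.359 of DP RNA at P1 and 92.4% ± 1.25 at P7. Below it at P1 stood E2f4 (23.0) and E2f1 (20.2), whose libraries overlapped, then E2f6 (16.4), E2f8 (7.60) and E2f3 (6.62), each apart from the one above. E2f3 overlapped E2f5 (5.49), and E2f5 overlapped E2f7 (5.16), with Tfdp2 (4.03) and E2f2 (1.05) below. At P7 the order was Tfdp1, E2f6 (21.8) and E2f4 (19.1), which overlapped, then E2f1 (15.2), E2f3 (7.65), E2f5 (4.76) and Tfdp2 (3.52), each apart, then E2f8 (0.705) and E2f7 (0.550), which overlapped, and E2f2 (0.191).

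The 8 E2F genes summed to 85.4 ± 0.761, 78.8 ± 2.25, 65.9 ± 2.22 and 70.0 ± 4.12 RPKM at P1, P3, P5 and P7. The makeup of this sum shifted as well. E2f7 and E2f8 went from 6.05% ± 0.495 and 8.89% ± 0.315 at P1 to 0.780% ± 0.205 and 0.990% ± 0.447 at P7, while E2f6 went from 19.2% ± 0.553 to 31.2% ± 2.09. E2f4 held 26.9% ± 1.65 at P1 and 27.3% ± 1.36 at P7.

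**Figure D2:**
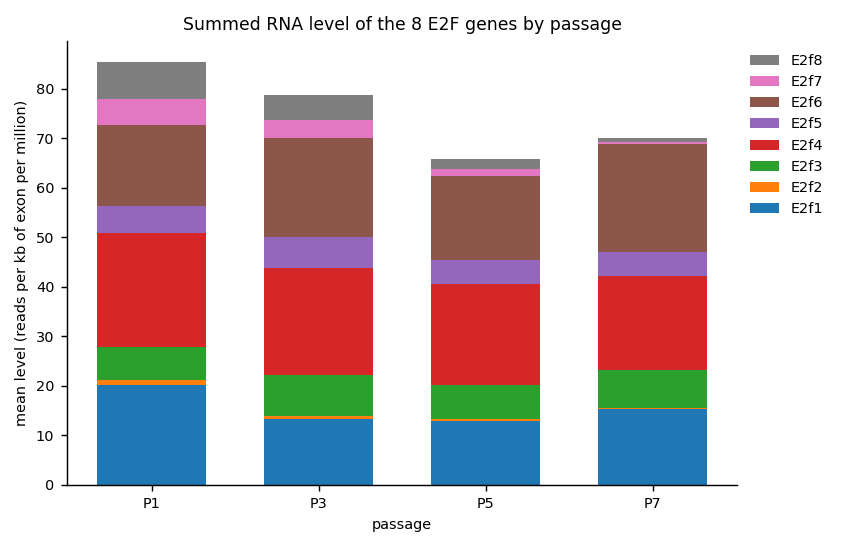
Mean level of the 8 E2F genes by passage, stacked, in RPKM (n = 4 libraries per passage). The total goes from 85.4 at P1 to 65.9 at P5 and 70.0 at P7, the E2f7 and E2f8 segments nearly vanish, and the E2f6 segment widens.

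Genes with the most similar course over the 16 passage libraries were ranked by Pearson correlation of log2 levels, as a description in which all points share the passage order. For E2f7 these were Pole (0.995), a DNA polymerase subunit, Foxm1 (0.994), a transcription factor of G2/M genes, and E2f8. For E2f8 they were Pole (0.994), E2f7 and Uhrf1 (0.993), a factor in maintenance of DNA methylation. Tfdp1 was closest to Cdv3, Dnajc9 and Tyms, the thymidylate synthase, at 0.990 to 0.991. E2f2 was closest to Dtymk, Slc25a5 and H2afx (0.953 to 0.962) and E2f1 to Pole3, Fkbp2 and Repin1 (0.929 to 0.962). The nearest genes of E2f6 were Cfl2, Ripk2 and Nudt6 (0.901 to 0.925). E2f3 (Tgfb3, Adgra3 and Ubqln1), E2f5 (Ubxn2a, Zfp976 and Rbms1) and Tfdp2 (Slc39a10, Cdk12 and Mfap3) had no gene above 0.89.

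Around the family, known E2F target genes fell together at P7 against P1. All 20 target genes of replication were lower, with a median log2 fold change of -2.41 beside -0.01 over all genes tested. Among them Cdc6, a licensing factor, went from 29.8 ± 3.48 to 2.72 ± 0.604 CPM, Mcm5, a subunit of the replicative helicase, from 107.4 ± 7.38 to 11.9 ± 1.66, and Prim1, a primase subunit, from 27.7 ± 2.01 to 3.58 ± 0.448 (SD, n = 4). All 12 E2F and DREAM targets of mitosis were lower (median -2.93), with Mki67, a proliferation marker, at 323.4 ± 10.2 and 20.8 ± 3.37 CPM, Top2a at 278.0 ± 3.78 and 30.9 ± 4.31, and Birc5 at 63.3 ± 5.24 and 7.12 ± 2.02. The ubiquitin ligase subunits Skp2 (-1.20) and Ccnf (-2.77), which act on E2F proteins, and the inhibitor Fbxo5 (-3.31) were lower as well.

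The regulators of E2F activity divided. All 4 genes of cyclin E, cyclin A and CDK2 were lower (median -1.59), among them Ccna2 (-3.25), Ccne2 (-1.97) and Cdk2 (-1.21), while 4 of 5 cyclin D and CDK4/6 genes were higher, led by Ccnd2 (2.23), Ccnd1 (1.01) and Cdk6 (0.84), and 1 was lower. Of 7 CDK inhibitors, 3 were higher and 3 lower. Cdkn2a rose from 8.06 ± 1.17 to 224.3 ± 36.5 CPM, Cdkn2b from 14.7 ± 3.22 to 54.5 ± 6.21 and Cdkn1a, which encodes p21, from 235.0 ± 20.5 to 679.9 ± 33.1. Of the pocket proteins, Rbl1 (p107) fell by 2.27 on the log2 scale, Rbl2 (p130) rose by 0.28 and Rb1 gave -0.25 without passing (adjusted p = 0.198). In the MuvB and B-Myb list, 4 of 6 were lower, among them Mybl2 (-3.47), Lin9 (-1.82) and Lin54 (-1.28). The E2F6 partners of PRC1.6 were lower in 6 and higher in 2 of 10 cases, with Rybp (-0.94), Cbx3 (-0.91) and Yaf2 (0.82) leading. None of the 4 germline genes known to be silenced through E2F6 had enough counts to be tested in the passage series.

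With E2f4 overexpression, every member passed the test. E2f4 itself, the check of the label, stood at 1118 and 1180 CPM in the OE libraries and at 35.5 and 47.5 in the control libraries, a log2 fold change of 4.79 (standard error 0.15, adjusted p = 7.07e-08). These reads mix endogenous E2f4 with the transgene, and E2f4 made up 87.2% ± 0.590 of E2F RNA per length in OE cells and 19.6% ± 3.80 in control cells (SD, n = 2). All 10 of 10 members passed, where 57.2% of all 13199 genes did. Of these, 6 were higher (28.9% of all genes) and 4 lower (28.2% of all genes). E2f4 is one of the 6 higher through the manipulation itself, so only the other members can be set beside these shares.

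The atypical members were higher with E2f4. E2f7 stood at 65.1 and 68.7 CPM against 27.5 and 26.0 in control cells (log2 fold change 1.32, standard error 0.12, adjusted p = 1.60e-05), and E2f8 at 34.1 and 34.8 against 12.3 and 17.1 (1.24, standard error 0.16, adjusted p = 0.000120). No OE library overlapped a control library for either gene. E2f2 was higher as well, at 3.31 and 4.06 against 2.14 and 1.04 CPM (1.16), as were E2f1, at 52.5 and 57.5 against 33.4 and 41.0 (0.57), and Tfdp1, at 246 and 240 against 188 and 183 (0.39). Lower were E2f6, at 74.2 and 65.9 against 110 and 95.3 CPM (-0.55), E2f3, at 56.2 and 60.3 against 76.6 and 76.1 (-0.39), E2f5, at 12.3 and 9.17 against 17.6 and 14.6 (-0.58), and Tfdp2, at 40.5 and 33.4 against 58.5 and 50.1 (-0.55). With 2 libraries a group these calls are less firm than the passage calls. Without OE replicate 2 the count was 6, since E2f3 (adjusted p = 0.0617), E2f5 (0.171), Tfdp1 (0.0538) and Tfdp2 (0.0818) no longer passed, and without OE replicate 1, E2f3 (0.137) and Tfdp1 (0.0822) no longer passed. The 5 muscle markers also differed between these groups, at 22.25 to 23.8 CPM in OE and 66.32 to 76.24 in control cells, with Myh3, Myog and Myod1 at 0 in both, and the 6 macrophage markers summed to 4.217 to 4.97 and 6.854 to 7.088 CPM. Their part in the result was not tested.

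Beside the members, 19 of 20 replication targets were higher in OE cells and none was lower, with a median log2 fold change of 0.78 beside 0.01 over all genes. Mcm5 rose by 1.57, Cdc6 by 0.65 and Prim1 by 0.67. Of the 12 mitotic targets 9 were higher and none lower (median 0.89), where Birc5 rose by 0.83, and Top2a (0.24, adjusted p = 0.117) and Mki67 (0.04, adjusted p = 0.849) did not pass. Ccnf (1.16), Fbxo5 (0.69), Mybl2 (1.37), Ccna2 (0.71) and Cdk2 (0.67) were higher. In the MuvB and B-Myb list 3 of 6 were higher and none lower, and in the cyclin E, cyclin A and CDK2 list 3 of 4 were higher and none lower. Of the CDK inhibitors, Cdkn2a (-0.83) and Cdkn2b (-0.72) were lower, and Cdkn1b, Cdkn1c, Cdkn2c and Cdkn2d were higher, by 0.47 to 1.46. Cyclin D and CDK4/6 genes had 2 higher and 2 lower of 5, pocket proteins 2 lower of 3, and PRC1.6 partners 3 higher and 2 lower of 10. Of the germline genes linked to E2F6, 2 of 4 could be tested, and Smc1b, a meiotic cohesin subunit, was higher (2.14, adjusted p = 0.0106).

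With the E2f4 hairpin sh1, E2f4 stood at 21.6, 20.4 and 21.8 CPM, against 59.6, 60.8 and 59.6 with nt (log2 fold change -1.50, standard error 0.09, adjusted p = 2.14e-07). Of 10 members 5 passed (17.8% of all 12310 genes), 4 lower (7.79% of all genes) and 1 higher (10% of all genes). E2f4 is one of the 4 lower through the knockdown itself, so only the other members can be set beside these shares. E2f6 was the higher one, at 87.5, 78.3 and 79.8 CPM against 54.3, 53.0 and 56.2 (0.59, standard error 0.08, adjusted p = 0.000156). E2f3 was lower, at 47.4, 44.9 and 42.6 against 61.4, 59.3 and 60.2 (-0.42), as were Tfdp1, at 152, 143 and 147 against 173, 188 and 179 (-0.29), and E2f8, at 11.96, 10.6 and 8.64 against 13.8, 16.7 and 16.8 (-0.60). For these 5 genes no sh1 library overlapped an nt library. E2f8 and Tfdp1 lost their calls without nt replicate 2 (adjusted p = 0.0785 and 0.0527), which left 3 members, and E2f8 also without nt replicate 3 (0.0768). E2f7, at 15.2, 12.3 and 14.8 against 16.6, 17.7 and 21.1 CPM, missed the threshold (-0.39, adjusted p = 0.0678) and passed without sh1 replicate 3 (adjusted p = 0.0436). E2f1 (0.12), E2f2 (-0.68), E2f5 (-0.29) and Tfdp2 (-0.12) did not pass, and the lowest adjusted p among them was 0.302.

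Marker levels differed between sh1 and nt cells too. The 10 fibroblast markers summed to 37300 to 39370 CPM with sh1 and 47150 to 47460 with nt, the 5 muscle markers to 110.9 to 135.5 and 73.33 to 76.1, and the 6 macrophage markers to 14.12 to 19.04 and 5.808 to 10.26, with Myog and Myod1 at 0 in both groups. Their part in the result was not tested. Of the replication targets 10 of 20 were lower with sh1 and none higher (median -0.31 beside -0.01 over all genes), and of the mitotic targets 10 of 12 were lower (median -0.42), with Mki67 at -0.57 and Top2a at -0.55. Skp2 (-0.78), Ccnf (-0.53) and Fbxo5 (-0.49) were lower. Of the remaining lists, 1 of 6 MuvB and B-Myb genes (Mybl2, -0.65), 1 of 4 cyclin E, cyclin A and CDK2 genes (Ccna2, -0.40), 2 of 5 cyclin D and CDK4/6 genes, 1 of 7 CDK inhibitors and 1 of 10 PRC1.6 partners were lower, no gene of these was higher, and no pocket protein passed.

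Set side by side, 3 members beside E2f4 itself passed in opposite directions in the overexpression and knockdown experiments, which share no library. With E2f4, whose directions were set by the manipulations, these are 4 of 10 members. Of the 12227 genes tested in both experiments, 7.49% did the same. E2f8 (1.24 in OE, -0.60 with sh1) and Tfdp1 (0.39 and -0.29) were higher with more E2f4 and lower with less, and E2f6 (-0.55 and 0.59) was the other way round. E2f3 was lower in both (-0.39 and -0.42). The experiments used fibroblasts of different passages and constructs, so the sizes are not directly comparable.

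**Figure D3:**
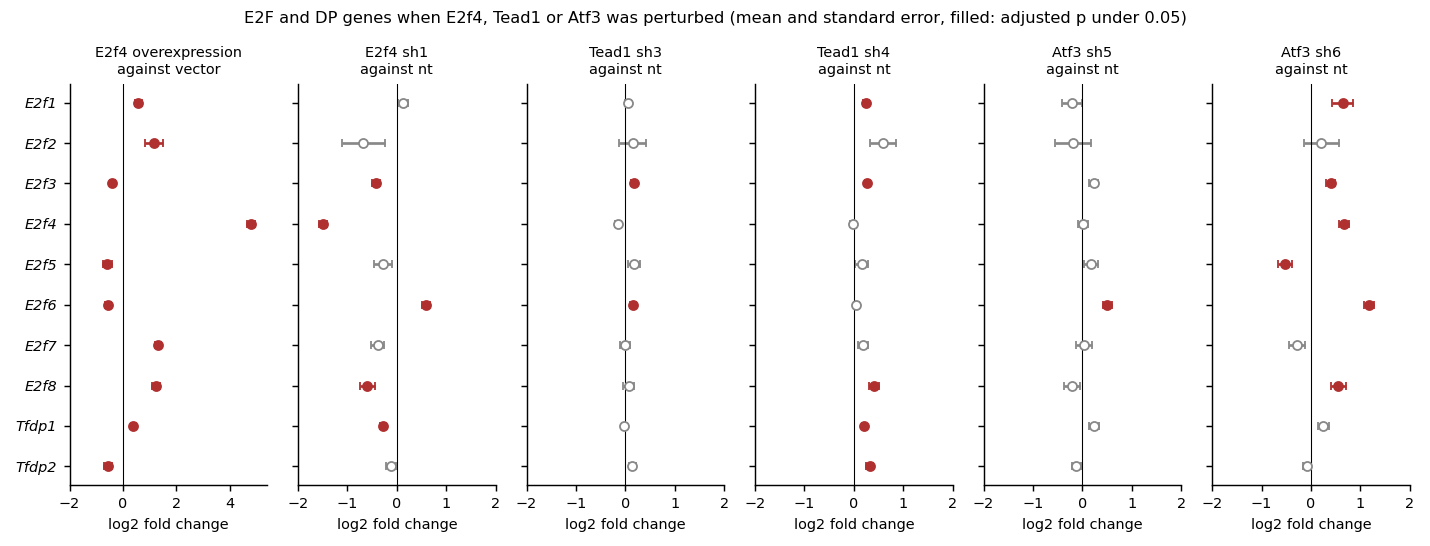
Log2 fold change of each member with its standard error for E2f4 overexpression, E2f4 sh1, Tead1 sh3 and sh4, and Atf3 sh5 and sh6, each against its own control. Filled points passed the test (adjusted p under 0.05 over all genes), and the axis of the first panel is wider than the others. E2f4 lies at 4.79 in OE and at -1.50 with sh1, and E2f6 lies at -0.55 and 0.59.

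Knockdown of Tead1, a transcription factor of the Hippo pathway, moved the family little. Tead1 itself fell from 541 ± 32.2 CPM with nt to 279 ± 9.58 with sh3 and 316 ± 3.64 with sh4 (SD, n = 3). With sh3, 2 of 10 members passed (35.4% of all 13012 genes), E2f3 (0.17) and E2f6 (0.15), both higher, a smaller share than over all genes. With sh4, 5 of 10 passed (29.1% of all genes) and all were higher, where 1871 of 13012 genes passed as higher. These members were E2f1 (0.24), E2f3 (0.27), E2f8 (0.41), Tfdp1 (0.20) and Tfdp2 (0.32). E2f8 stood at 17.6, 14.9 and 16.3 CPM with sh4, 12.5, 13.6 and 12.2 with sh3 and 13.5, 10.9 and 12.2 with nt, so that each sh4 library was above the others. Tfdp1 stood at 186, 171 and 173 CPM with sh4, 156, 148 and 150 with sh3 and 155, 158 and 147 with nt. Both hairpins share the nt libraries, and in their direct comparison 2 of 10 members passed (7.37% of all genes), E2f8 (0.35, standard error 0.10, adjusted p = 0.0300) and Tfdp1 (0.22, standard error 0.04, adjusted p = 0.00143). The E2f8 difference lost its call without sh3 replicate 1 or 3 or sh4 replicate 1 or 3 (adjusted p up to 0.173). With sh3, E2f6 did not pass without sh3 replicate 2, sh3 replicate 3 or nt replicate 3 (adjusted p up to 0.253), nor did E2f3 without nt replicate 1 (adjusted p = 0.115), and E2f4 passed without sh3 replicate 3 (-0.19, adjusted p = 0.0248). E2f2 passed with sh4 without nt replicate 1 (0.79, adjusted p = 0.0477), and E2f1 between the hairpins without nt replicate 2 (0.19, adjusted p = 0.0463).

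The lists around the family were divided under Tead1 knockdown. Of all 13012 genes, 2294 passed as higher and 2307 as lower with sh3, and 1871 and 1917 with sh4. Replication targets were higher in 7 and lower in 1 of 20 cases with sh3 and in 10 and 1 with sh4, and mitotic targets were lower in 5 of 12 cases with sh3 and higher in 2 with sh4. Of the 7 CDK inhibitors, 1 was higher and 3 lower with sh3 and 2 and 2 with sh4, and 2 of 3 pocket proteins were lower with sh3 and 1 was higher and 1 lower with sh4. Cyclin D and CDK4/6 genes gave 1 higher and 2 lower of 5 with sh3 and 1 and 1 with sh4, cyclin E, cyclin A and CDK2 genes 1 and 2 higher of 4, MuvB and B-Myb genes 1 higher and 1 lower of 6 with sh3 and 1 higher with sh4, and PRC1.6 partners none and 1 higher of 10. 1 gene of the Skp2, Ccnf and Fbxo5 list was higher with each hairpin. The muscle markers summed to 64.23 to 83.33 CPM with the hairpins and 97.96 to 99.47 with nt, and their part in the result was not tested. Myog and Myod1 had no count in any of these libraries.

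Atf3, a member of the AP-1 superfamily, was barely expressed, at 2.98 ± 0.289 CPM with nt, 1.34 ± 0.831 with sh5 (log2 fold change -1.14, adjusted p = 0.0447) and 1.72 ± 0.322 with sh6 (-0.79, adjusted p = 0.114). The test thus did not show a lower level in the libraries labelled sh6, though all of them (highest 2.09 CPM) lay below those of nt (lowest 2.77). The paper reports knockdown of Atf3 by RT-qPCR and immunoblot. Replicate 3 of sh5 stood apart from the other libraries, and values without it are given as well. With sh5, 1 of 10 members passed (35.9% of all 13345 genes), E2f6 (0.51, adjusted p = 0.00420), and without sh5 replicate 3 the count was again 1. Without sh5 replicate 2, E2f3 and Tfdp1 passed as well (adjusted p = 0.0406 and 0.0357). With sh6, 6 of 10 passed (49.8% of all genes), 5 higher and 1 lower. Of all 13345 genes, 3176 passed as higher and 3466 as lower. E2f6 was at 84.0, 85.3 and 88.7 CPM with sh6, 50.7, 48.9 and 62.9 with sh5 and 38.1, 39.2 and 37.0 with nt, so the groups did not overlap, and the log2 fold change with sh6 was 1.17 (standard error 0.10). E2f4 was at 64.8, 66.6 and 59.1 CPM with sh6, 41.6, 43.2 and 35.1 with sh5 and 36.6, 42.3 and 40.5 with nt (0.67 with sh6). E2f1 (0.64), E2f8 (0.55) and E2f3 (0.40) were higher with sh6 and E2f5 (-0.53) was lower. E2f1 did not pass without sh6 replicate 1 or 2 or nt replicate 1 or 2 (adjusted p up to 0.0897), E2f5 without sh6 replicate 1 or 2 or nt replicate 3 (up to 0.0614), or E2f8 without sh6 replicate 3 (0.0515). E2f7 passed without nt replicate 3 (-0.45, adjusted p = 0.0183) and Tfdp1 without sh5 replicate 3 (0.26, adjusted p = 0.00117).

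In the direct comparison of the Atf3 hairpins, 5 of 10 members passed, near the share of 52.6% over all genes. E2f1 (0.85), E2f8 (0.76), E2f4 (0.67) and E2f6 (0.67) were higher with sh6 than with sh5, and E2f5 was lower (-0.70). E2f1 was at 34.9, 30.7 and 17.5 CPM in the sh5 libraries, the last of these being replicate 3, and without that replicate the differences were 0.59 for E2f1, 0.79 for E2f8, 0.57 for E2f4, 0.77 for E2f6 and -0.60 for E2f5, all passing, with E2f3 as a sixth (0.26, adjusted p = 0.00268). The muscle markers summed to 195.8 to 214.2 CPM with sh6, 13.7 to 17.04 with sh5 and 37.09 to 38.42 with nt, and the fibroblast markers to 46880 to 48900, 39090 to 52730 and 54320 to 57860. Among the muscle markers, Myog had no count with sh6, Myog and Myod1 none with sh5, and Myod1 none with nt. The part of these markers in the result was not tested. Of all 13345 genes, 2365 passed as higher and 2420 as lower with sh5, and 3176 and 3466 with sh6. Replication targets were higher in 3 of 20 cases and lower in 3 with sh5, and higher in 3 and lower in 2 with sh6, and mitotic targets were higher in 2 and lower in 3 of 12 with sh5, and higher in 1 and lower in 6 with sh6. CDK inhibitors were lower in 4 of 7 cases with sh5, and in 5 with sh6, where 1 was higher. Pocket proteins were higher in 2 of 3 cases with sh5, and in 1 with sh6, where 1 was lower. PRC1.6 partners were higher in 1 and lower in 1 of 10 with sh5, and higher in 5 and lower in 3 with sh6. Of the other lists, at most 2 genes each passed in either direction.

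Promoter accessibility was read from the MACS2 peak lists as the fold enrichment at the strongest peak within 1000 bases of an annotated start site, in log2 and centred on the median of the sample. All 17 annotated start sites of the 10 members had a peak in all 13 samples, including those of genes whose RNA fell, as did 59% of all 29743 annotated start sites. The lists reach down to a -log10 p of 2, so weak peaks count as well. At the second E2f3 start site the fold enrichment was only 2.135 to 3.565. Neighbouring start sites of E2f1, E2f8 and Tfdp1 gave the same values within each gene, and are not separate observations. The members occupied very different ranks among all promoters. By the -log10 p of the peak, E2f3 stood at percentiles 97.9 to 99.7 over the 13 samples and E2f1 at 69.6 to 87.8, while E2f2 stood at 11.7 to 29.7, Tfdp1 at 15.6 to 40.3 and E2f6 at 3.06 to 11.3. Start sites of other genes lie near those of E2f4 (Exoc3l, 1550 bases away) and E2f8 (Gm2788, 259 bases). The E2f8 signal is therefore shared, while sharing of the E2f4 peaks with Exoc3l was not examined.

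Between P1 and P7, 3 of 10 members passed the limma test on promoter signal, where 22.8% of all 14477 genes tested passed. At E2f3 the fold enrichment was 12.1, 12.5, 13.04 and 12.4 in the P1 samples, 11.8, 11.7 and 13.9 at P3, 14.97, 15.7 and 14.5 at P5, and 15.3, 18.8 and 17.6 at P7, and after centring the log2 difference between P7 and P1 was 0.30 (standard error 0.08, adjusted p = 0.0110). At Tfdp1 it was 7.96, 6.96, 7.005 and 7.60 at P1, 8.50, 6.07 and 7.87 at P3, 8.84, 7.35 and 7.09 at P5, and 6.92, 5.88 and 5.83 at P7 (-0.41, standard error 0.12, adjusted p = 0.0230). At E2f6 it was 4.38, 4.86, 5.16 and 5.01 at P1, 4.91, 3.74 and 3.72 at P3, 5.33, 4.36 and 4.66 at P5, and 4.745, 3.21 and 3.39 at P7 (-0.53, standard error 0.16, adjusted p = 0.0268). For Tfdp1 and E2f3 all P7 samples lay on one side of P1, while P7 replicate 1 of E2f6 lay inside the P1 range.

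These 3 calls rest on few samples and on the centring. Without P7 replicate 2 none of the 3 passed (adjusted p = 0.0513 for E2f3, 0.110 for Tfdp1 and 0.147 for E2f6), and without P7 replicate 3 only E2f3 did. E2f6 also did not pass without P1 replicate 3 (0.0649) or P1 replicate 4 (0.0552), nor Tfdp1 without P1 replicate 1 (0.0726). The median log2 fold enrichment over all genes lay between 3.26 and 3.34 in P1 samples and between 3.37 and 3.55 in P7 samples, and without centring Tfdp1 (-0.25, adjusted p = 0.178) and E2f6 (-0.38, adjusted p = 0.092) did not pass, while E2f5 (0.34) and E2f8 (0.32) did.

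The RNA and the promoter signal of a member often differed in course. E2f7, whose RNA fell by 3.23 on the log2 scale, had a promoter fold enrichment of 13.1, 13.5, 13.8 and 14.5 at P1 and 14.4, 14.5 and 17.0 at P7, a centred log2 difference of 0.00 (standard error 0.10, adjusted p = 0.996). E2f8 had 11.3, 11.9, 11.1 and 11.7 at P1 and 12.3, 15.3 and 15.9 at P7 (0.17, adjusted p = 0.197), and E2f2 had 7.62 ± 0.580 and 7.44 ± 0.605 (SD, n = 4 and 3, -0.19, adjusted p = 0.347). For Tfdp1 both measures were lower at P7, and for E2f6 the RNA was higher and the promoter signal lower. E2f1, E2f4 and Tfdp2 gave differences of 0.00, 0.04 and -0.01 that did not pass, as did E2f5 (0.19, adjusted p = 0.131).

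**Figure D4:**
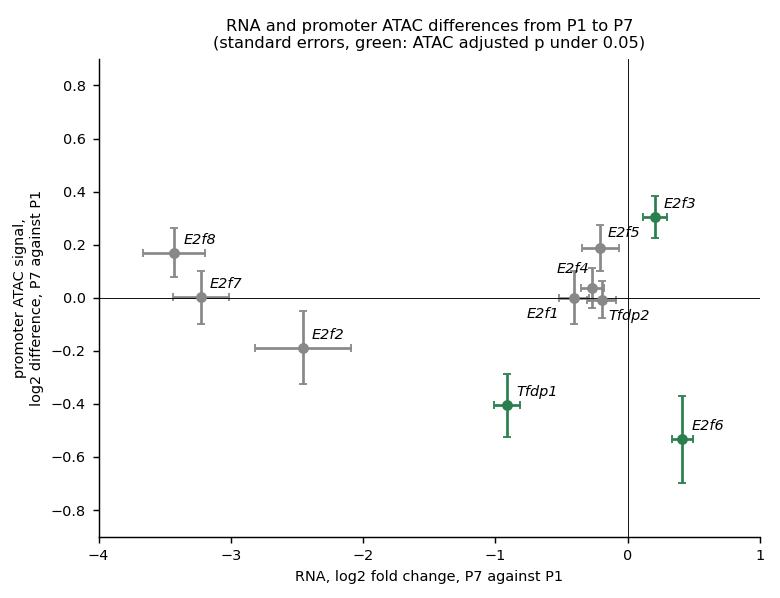
Each point is a member, with the log2 fold change of its RNA from P1 to P7 on the horizontal axis and the centred log2 difference of its strongest promoter ATAC peak on the vertical axis, with standard errors. Green points passed the ATAC test. E2f7 and E2f8 lie far left at 0.00 and 0.17 on the ATAC axis, Tfdp1 lies low on both, and E2f6 lies right of and below the origin.

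Another reading of the same peaks, their -log10 p as a percentile among all promoters, gave a different picture for E2f7 and E2f8. E2f7 was 22.2 percentile points lower at P7 than at P1 and E2f8 10.4 points lower, with all P7 samples below all P1 samples in both cases (two-sided exact permutation p = 0.0286, the smallest that 4 against 3 samples allow, and 0.0880 after adjustment over all genes). Tfdp2 (-11.6 points), Tfdp1 (-10.1) and E2f5 (-5.53) reached the same p, and no member passed after adjustment. The share of all genes at that p is not given here. By limma on fold enrichment, 36.1% of all genes had an unadjusted p under 0.05 between P1 and P7. The number of members at the smallest p is therefore not read as a trait of the family. The strongest peaks of the atypical members also became shorter. The strongest E2f7 peak spanned 1252 to 1514 bases at P1 and 545 to 576 at P7, and that of E2f8 1188 to 1443 and 536 to 958. The median over all genes with a promoter peak was 1069 to 1175 bases at P1 and 637 to 935 at P7, so that among all genes E2f7 stood at percentiles 58.1 to 82.9 of length at P1 and 20.1 to 42.7 at P7. The strongest E2f1 peak went from 1894 to 1966 bases at P1 (percentiles 94.9 to 97.4) to 685 to 993 at P7 (percentiles 35.4 to 67.2). The E2f1 window held 1 peak in each P1 sample and 2 in each P7 sample. The E2f7 window held 1 in each P1 sample and 1, 2 and 2 at P7, and the E2f8 window 2 in each and 1, 3 and 2. Whether a wide peak was split into shorter ones was not tested, and only the strongest peak was measured for length. These lengths were compared after seeing the data, without a test. The depth of the ATAC samples is unknown, since peak lists give none.

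Between the other passages few promoters differed. P3 against P1, P5 against P3 and P7 against P5 gave 0 of 10 members past limma's adjusted p (2.22%, 1.98% and 1.20% of all genes), and at an unadjusted p under 0.05 they gave 2 (E2f7 and Tfdp2), 1 (Tfdp2) and 2 (E2f3 and Tfdp1) of 10, near or below the 18.7%, 19.2% and 16% of all genes at that threshold. Without centring, P5 against P3 gave 3. At Tfdp2 the signal was 0.21 lower at P3 than at P1 and 0.25 higher at P5 than at P3 on the log2 scale, and either passed without P3 replicate 3 (adjusted p = 0.0350 and 0.0242). P7 against P3 gave 1 of 10 (10.1% of all genes), Tfdp1 (-0.48, standard error 0.13, adjusted p = 0.0245). This call ended without P3 replicate 1, P3 replicate 3, P7 replicate 2 or P7 replicate 3 (adjusted p up to 0.103). Without P3 replicate 3, E2f7 (0.38) and Tfdp2 (0.29) passed instead, and without P7 replicate 1, E2f6 passed as well (-0.58).

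**Figure D5:**
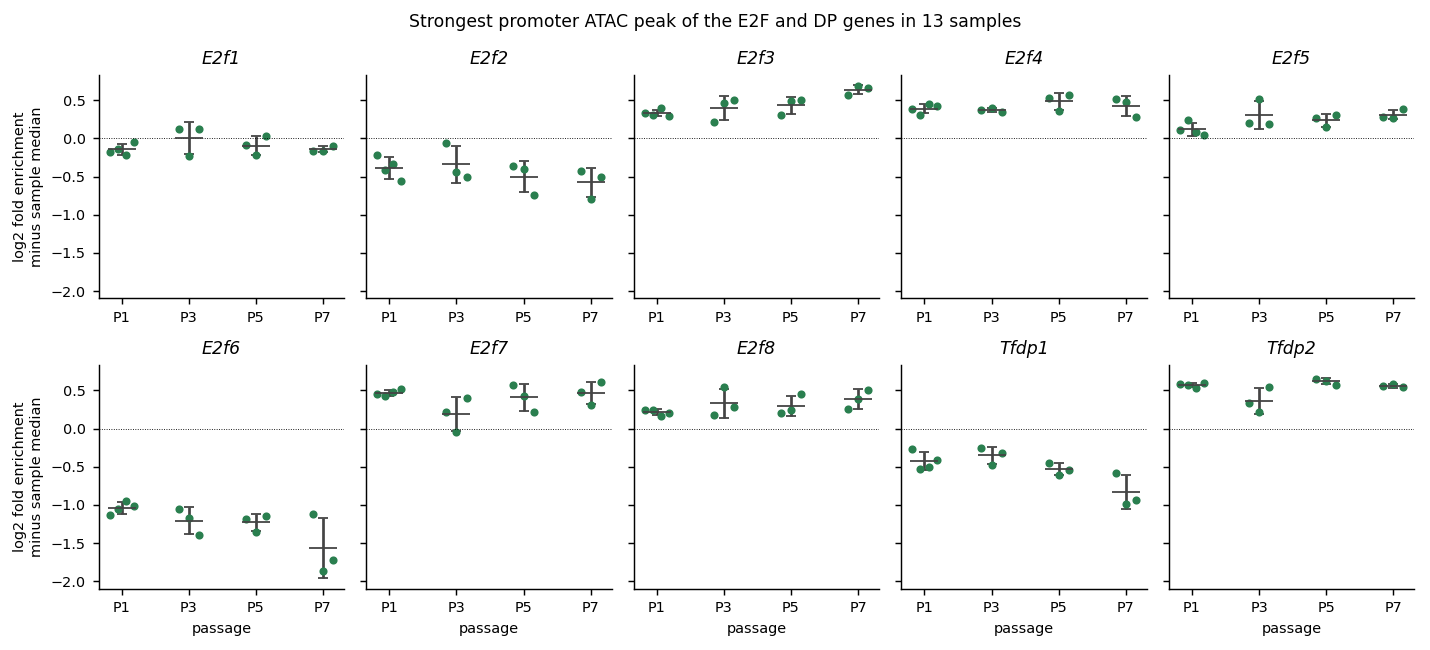
Strongest promoter ATAC peak of each member in 13 samples by passage, as log2 fold enrichment minus the median over all genes in the sample. Points are samples, long ticks the mean and whiskers the SD, and the dotted line marks the sample median. E2f3 goes from a mean of 0.33 at P1 to 0.64 at P7, Tfdp1 from -0.43 to -0.83 and E2f6 from -1.03 to -1.57, and E2f7 stands at 0.47 at both passages.

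In promoters of the genes around the family, accessibility at P7 against P1 was divided. Of all 14477 genes tested, 1696 passed as higher and 1602 as lower, and the small list counts below are to be read beside these. The replication targets were higher in 6 and lower in 4 of 20 cases, with a median difference of -0.01, although the RNA of all 20 was lower, and the mitotic targets were higher in 2 of 12 and lower in none. The 3 genes Skp2, Ccnf and Fbxo5 all had a higher promoter signal (median 0.23). Of the pocket proteins 2 of 3 were lower, of the cyclin D and CDK4/6 genes 1 of 5 was higher, of the cyclin E, cyclin A and CDK2 genes 1 of 4 was higher, and of the PRC1.6 partners 2 of 10 were higher. None of the 6 MuvB and B-Myb genes, the 7 CDK inhibitors or the 2 germline genes that could be tested passed.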

How the data were processed

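The RNA-seq files hold whole-number counts per gene, which the authors made with Trimmomatic 0.39, HISAT2 2.2.1 on mm10 and HTSeq 0.12.4 without strand. The ATAC-seq files are MACS2 peak lists that the authors called per sample after alignment with Bowtie2 2.3.5.1, and the deposited columns used here are the fold enrichment at the summit, the -log10 p and the -log10 q. The 10 members and the lists around them were chosen with earlier results of these data known. Rows that name no gene (7.5% to 16.76% of reads where counted) were left out.

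Counts were tested with edgeR 4.0.16 (quasi-likelihood, TMM scaling, low counts filtered by group, all libraries of an experiment in 1 fit, Benjamini-Hochberg adjusted p under 0.05 over all genes tested) in R 4.3.3. For ATAC, the highest log2 fold enrichment of a peak overlapping 1000 bases on each side of a RefSeq start site (GRCm38.p6) was centred per sample on its median and tested with limma 3.58.1 over genes with a peak in every sample. Peaks were processed with Python 3.11.15 and bedtools 2.31.1, and the tests were checked on simulated data.

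Named genes were all members, Tead1 and Atf3, up to 3 genes per list with the largest passing change from P1 to P7, and the 3 genes most correlated with each member (log2 of CPM plus 1), those for E2f4 not being reported here. Other list genes are named to complete a count of 5 or fewer and were chosen after their values were seen. Alternatives were DESeq2 1.42.0 and its size factors, other filters, a fold over 2, only the 2 groups compared, a replicate block, leaving out each library, and for ATAC other windows, thresholds, scalings and a percentile measure. Bisulfite libraries were not analysed here. RNA depth was 9147324 to 27552949 counts per library, and spreads cover these samples only.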

Additional observations from a re-analysis of the deposited data

Results flagged for a closer look

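A sample stood far from the others of its group in 2 of 50 groups of member values tested, and chance gives about 1 in 20 groups. E2f6 RNA in P1 replicate 3 was 39.1 CPM, with a gap to the nearest library of 0.949 of the range of the group. The E2f5 promoter fold enrichment in P1 replicate 2 was 11.88, with a gap of 0.900 of the range.

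The hairpins against 1 target differed in 7 of 20 tests of the difference itself (edgeR adjusted p under 0.05 over all genes). These were 2 of 10 members for Tead1, where 7.37% of all genes differed, and 5 of 10 for Atf3, where 52.6% did, so the Atf3 count is near that of any genes. For Tead1, the log2 fold change between sh4 and sh3 was 0.3511 for E2f8 (adjusted p = 0.03) and 0.2234 for Tfdp1 (adjusted p = 0.00143). For Atf3, that between sh6 and sh5 was 0.8450 for E2f1 (adjusted p = 0.00619), 0.6680 for E2f4 (adjusted p = 0.000349), -0.6961 for E2f5 (adjusted p = 0.00299), 0.6676 for E2f6 (adjusted p = 0.000283) and 0.7620 for E2f8 (adjusted p = 0.00228). In each of these tests all 3 libraries of one hairpin lay on the same side of all 3 of the other.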

How the results depend on the processing

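No member value that passed the test changed sign under the alternatives run. Of 2224 RNA values, 2120 kept their side of the threshold, 85 lost a call and 19 gained one, and of 950 ATAC values these numbers were 918, 19 and 13. Counts of members that passed moved as follows, and where no library is named the cause was not tested. With a fold over 2 as well, they were 1 of 10 for P3 against P1 (8.98% of all genes), 2 for P5 against P3 (3.89%), 2 for P7 against P5 (3.47%), 3 for P7 against P3 (11.9%), 3 for P7 against P1 (21.4%), 4 for OE (18.1%), 1 for sh1 (1.67%), 0 for each Tead1 comparison (0.269% to 2.71%), 0 for Atf3 sh5 (5.2%), 1 for sh6 (15.7%) and 0 for sh6 against sh5 (15.8%). E2f4, the gene manipulated, is among the members counted for OE and is the 1 for sh1. P5 against P3 gave 4 without a filter on low counts and 4 in the fit of P3, P5 and P7 alone, chosen after seeing the data. Atf3 sh5 gave 2 with DESeq2. For ATAC, P5 against P3 and P7 against P3 gave 3 each without centring, P7 against P3 gave 0 and P7 against P1 gave 1 with quantile normalization. Both gave 0 with percentiles, which says nothing about stability, since the exact test cannot go below 0.1 for P7 against P3, and its smallest p for P7 against P1, 0.0286, came to 0.088 after adjustment.

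Without any 1 library, the RNA counts lay between 3 and 6 for P3 against P1, 3 and 7 for P5 against P3, 3 and 4 for P7 against P5, 4 and 7 for P7 against P3, 6 and 8 for P7 against P1, 6 and 10 for OE, 3 and 6 for sh1, 1 and 2 for Tead1 sh3, 5 and 6 for sh4, 1 and 3 for sh4 against sh3, 1 and 3 for Atf3 sh5, 4 and 7 for sh6, and 5 and 6 for sh6 against sh5. ATAC counts lay between 0 and 1 for P3 against P1 and P5 against P3, 0 and 0 for P7 against P5, 0 and 2 for P7 against P3, and 0 and 3 for P7 against P1. A lone OE or control library was assumed to vary like the other group.

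Same-numbered libraries did not deviate together in every pair (correlations from -0.377 to 0.361, median 0.109, in the passage RNA). Different-numbered ones gave -0.44 to 0.4 (median -0.021). In the E2f4 knockdown, same-numbered pairs (0.028 to 0.049) all lay above the others (up to 0.021). For Tead1 and Atf3 their medians (0.002 and -0.005) lay below those of the others (0.01 and 0.029). The numbers were not taken to pair the libraries, which these values do not settle. With the replicate block, P5 against P3 gave 6 members (E2f6, adjusted p = 0.0541) and ATAC P7 against P1 gave 2 (E2f6, adjusted p = 0.0577), and no other call changed. The filter of at least 10 counts in every library removed E2f2 in some experiments, which then had no value. E2f2, with 5 to 95 counts, is the least precise member.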
